A study of Mus musculus with 8 samples.

Results

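The genes described here encode centrosomal and centriolar proteins. They are the protein-coding genes named Cep followed by a number, together with a short list of centriole and centrosome genes that carry other names (Sass6, Stil, Plk4, Cenpj, Pcnt, Cntrl, Cntrob, Ninl, Nin, Poc1a, Poc1b, Poc5, Pcm1 and Odf2l). Of the 54532 genes in the deposited table, 50 were members, 36 by the Cep name and 14 by their own name. The symbol Sas6 had no row. The members lay on 17 chromosomes, and 0 were on X or Y. Whole-testis RNA was sequenced in 2 groups, Sync-Spdya fl/fl (control, 4 mice) and Sync-Spdya cKO (4 mice), and each mouse gave 1 library. Both groups carry the floxed Spdya alleles and received tamoxifen, at RA7.5 and RA8.5 by the labels, where RA gives the days after the retinoic acid injection that restarts spermatogenesis in step after a block. The cKO mice also carry Ddx4-CreERT2, a tamoxifen-activated Cre driven by a germ cell promoter, so that the deletion is aimed at germ cells and not at the somatic cells of the testis. Testes were taken from these juvenile males at RA11.5, which the study describes as mid-late pachynema. The study used these libraries to ask whether the silencing of the sex chromosomes in pachytene spermatocytes was disturbed when X and Y stayed fully synapsed.

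A centrosome is a pair of centrioles, barrels of microtubules, set in a pericentriolar material that nucleates microtubules. Centrioles are copied once per cell cycle by a pathway that begins with the kinase PLK4 and a cartwheel scaffold. The older centriole carries appendages that anchor microtubules and dock the centriole at the membrane, where it becomes the base of a cilium. In male germ cells the centrosomes form the poles of the meiotic spindles, and in spermatids a centriole becomes the basal body from which the sperm tail grows.

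Levels are given as FPKM, in which a count of fragments is divided by the length of the gene and by a scaled library size, so that genes can be compared with each other. The libraries held 13978342 to 19583091 fragments on genes, recovered from the deposited FPKM. Control replicate 1 stood apart, with 0.464% of its fragments on mitochondrial genes against 2.20% to 3.74% in the other libraries. Spdya itself had 19.7 to 23.8 FPKM in the controls and 17.7 to 30.5 FPKM in the cKO libraries. Its level over the whole gene is no check of the labels, because Cre removes only a part of the gene. The groups were compared with limma on log2(FPKM + 0.1), over 12141 protein-coding genes whose mean exceeded 1 FPKM in each group. Of the members, 48 passed this filter and were tested.

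The members were transcribed at moderate levels in these testes, with a median of 10.9 FPKM over the 50 members against 9.54 FPKM over all genes tested. A mean of 20 FPKM or more was seen in 7 members, a mean of 5 to 20 in 35, a mean of 1 to 5 in 6 and a mean under 1 in 2. The highest was Cep85, whose protein binds STIL, with 54.8, 64.8, 65.7 and 58.2 FPKM in the controls and 62.1, 56.4, 55.7 and 50.5 FPKM in the cKO libraries. Pcm1, the scaffold of the centriolar satellites that surround the centrosome, had 39.3, 40.1, 49.7 and 46.9 FPKM in the controls and 45.6, 37.4, 38.4 and 37.2 FPKM in the cKO libraries. Both groups overlapped in each of these genes. Ninl, which anchors microtubules, had 39.7, 35.0, 30.3 and 34.1 FPKM against 31.4, 37.3, 34.0 and 36.0 FPKM in the cKO libraries. Cep78 had 32.6, 31.0, 29.5 and 27.3 FPKM in the controls and 30.2, 26.7, 28.2 and 28.6 FPKM in the cKO libraries. The spread of single libraries in Cep78 and Ninl was wider than the distance between the group means.

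**Figure D1:**
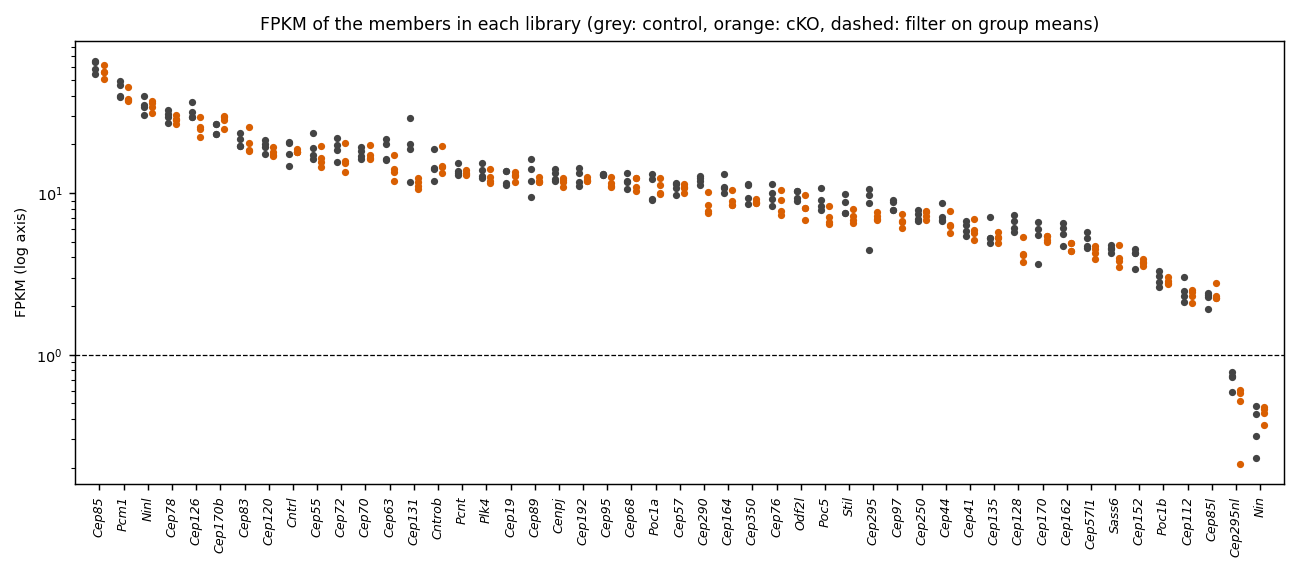
FPKM of 49 members in each library, on a log axis, ordered by the mean over the 8 libraries. Grey points are the 4 control libraries and orange points the 4 cKO libraries; the dashed line marks the 1 FPKM that both group means had to exceed. The members span from 58.6 FPKM (Cep85) to 0.401 FPKM (Nin), and the last 2 lie under the line.

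At the other end of the range were Cep85l, Cep112 and Poc1b. Poc1b, a centriole wall protein, had 2.62, 2.83, 3.07 and 3.31 FPKM in the controls and 2.87, 2.78, 3.03 and 2.74 FPKM in the cKO libraries. Cep112 had 3.03, 2.30, 2.11 and 2.47 FPKM in the controls and 2.43, 2.09, 2.32 and 2.52 FPKM in the cKO libraries. Cep85l had 1.92, 2.27, 2.40 and 2.34 FPKM in the controls and 2.77, 2.24, 2.24 and 2.32 FPKM in the cKO libraries. The control values of all 3 genes enclosed or overlapped the cKO values. Cep85l, at a mean of 2.31 FPKM, was the lowest member inside the filter, and Cep295nl, at 0.594 FPKM, the highest outside it. Cep295nl had 0.589, 0.738, 0.724 and 0.785 FPKM in the controls and 0.212, 0.515, 0.580 and 0.606 FPKM in the cKO libraries. These values rest on 8 to 26 fragments per library. Nin, which encodes ninein, a protein of the subdistal appendages, had 0.485, 0.315, 0.229 and 0.431 FPKM in the controls and 0.370, 0.460, 0.439 and 0.478 FPKM in the cKO libraries, from 61 to 138 fragments.

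Several members come as pairs of related genes, and in these testes 1 gene of each pair was above the other in every library. Ninl exceeded Nin 75.3-fold to 132-fold over the 8 libraries. Cep85 exceeded Cep85l 21.8-fold to 28.6-fold, and Cep170b exceeded Cep170 3.53-fold to 7.39-fold. The latter are a pair of microtubule-binding proteins of the mother centriole. Poc1a exceeded Poc1b 2.79-fold to 4.63-fold, and Cep57 exceeded its relative Cep57l1 1.88-fold to 2.73-fold. Cep295, which is needed for a new centriole to become a centrosome, exceeded Cep295nl 7.61-fold to 35.9-fold. Of these 6 ratios, the one that differed most clearly between the groups was that of Cep85 to Cep85l, which was 0.21 lower in the cKO libraries on the log2 scale. An exact permutation test over the 70 assignments of 8 libraries gave p = 0.0571 for it, two-sided, and 0.229 after Benjamini-Hochberg adjustment over the 6 pairs.

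Against the controls, 0 of the 48 members tested in Sync-Spdya cKO testes reached a adjusted limma p below 0.05, in a table where 0.0165% of all genes did. The lowest adjusted p of a member was 0.150, and voom on the recovered fragments also gave 0 members. The same 0.0165% of genes also passed an absolute log2 fold change above 1, and 0 members changed by that much. At an unadjusted p below 0.05, 9 members were lower in the cKO libraries and 0 were higher. Among all genes tested, 5.0% were lower at this level and 5.89% were higher, and among the members 18.8% were lower. The groups did not overlap in 4 members, all of them lower in the cKO libraries, and this was so in 2.59% of all genes. The reverse, every cKO library above every control, was seen in 0 members and in 3.64% of all genes.

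Most of the differences were small and pointed to lower levels. The log2 fold change was below 0 in 42 of the 48 members tested, against 48.0% of all genes. After rescaling each library to TPM it was below 0 in 29, and the share of all genes was not counted there. With the deposited values the median was -0.12 over the members and 0.01 over all genes tested. The distance of the members' median from that of all genes was -0.135 with the deposited values and also after rescaling to TPM. The members' log2 fold changes ranged from -0.73 (Cep131) to 0.17 (Cep170b). The members were longer than other genes, with a median of 6148 bases against 4268, and across all genes tested the fold change had a Spearman correlation of -0.09 with gene length, given as a description over genes, which are not independent replicates.

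**Figure D2:**
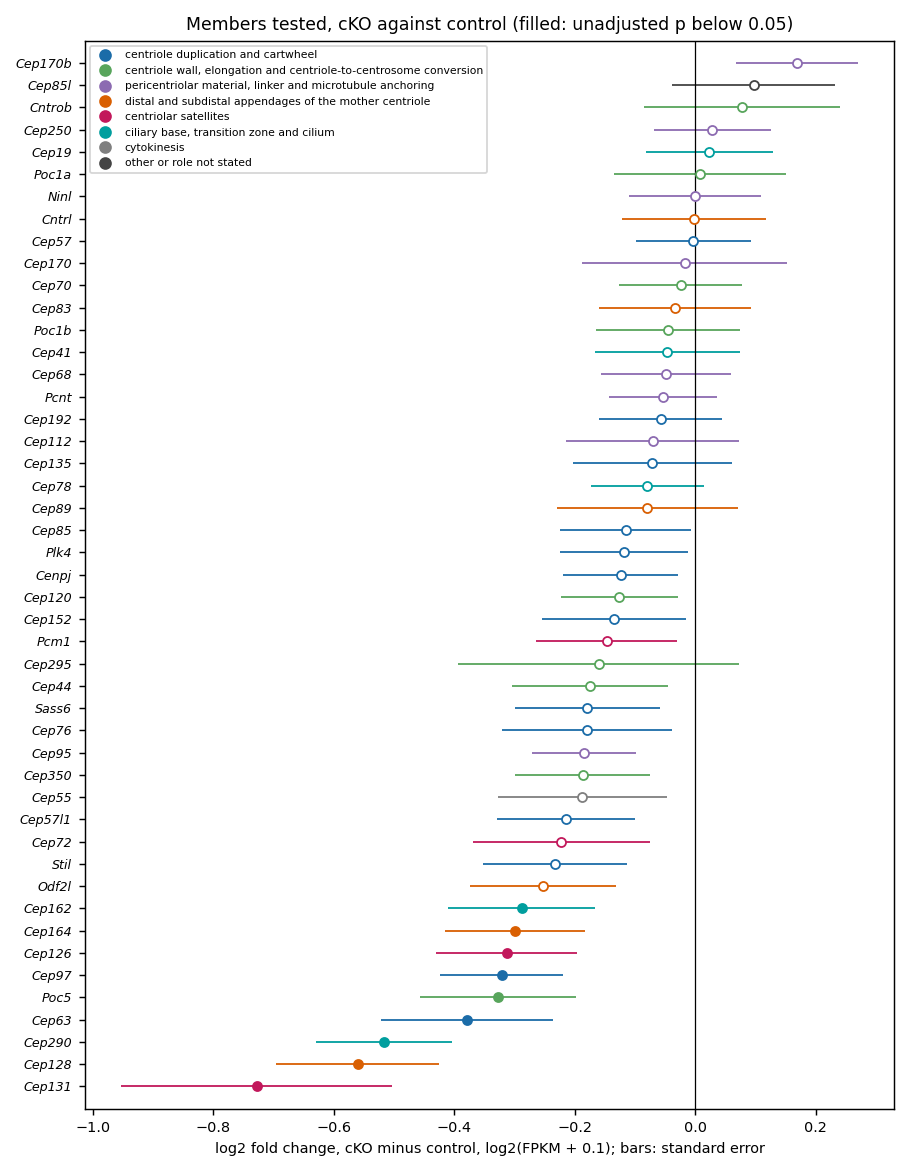
Log2 fold change of 47 members tested, cKO minus control on the log2(FPKM + 0.1) scale, with the limma standard error as bars and the colour giving the role of the protein. Filled points are the 9 members with an unadjusted p below 0.05, which all lie left of 0, from Cep131 at -0.73 to Cep162 at -0.29.

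Marker genes of the cell types in the testis were set beside the members. The 10 spermatocyte markers summed to 1121 to 1692 FPKM in the controls and to 890.5 to 1379 FPKM in the cKO libraries. At an unadjusted p below 0.05, 2 of the 9 tested were lower, Ldhc (log2 fold change -0.73) and Piwil1 (-0.40), and none higher. Of the 9, 8 had a log2 fold change below 0, with a median of -0.18 over the 9. Among them Sycp1 stood at -0.09, Pgk2 at -0.02 and Spo11 at 0.10. The mean log2 level of the 48 members was 3.48, 3.48, 3.60 and 3.46 in the controls and 3.496, 3.32, 3.33 and 3.28 in the cKO libraries. That of the spermatocyte markers was 5.66, 5.54, 5.78 and 5.34 in the controls and 5.64, 5.26, 5.29 and 5.03 in the cKO libraries. The same 3 libraries, cKO replicates 2, 3 and 4, had the lowest values of both, and control replicate 3 had the highest of both. In libraries of whole testes, fewer cells of a type and less RNA per cell cannot be told apart. Among somatic markers, higher values at an unadjusted p below 0.05 were seen in 2 of 3 Leydig genes tested, 1 of 3 peritubular, 2 of 5 macrophage and 2 of 4 endothelial genes, and in 0 of 8 Sertoli genes. The Sertoli markers summed to 989.6 to 1337 FPKM in the controls and to 1322 to 1565 FPKM in the cKO libraries. Clu made up most of these sums. The mean log2 level of the Sertoli markers was 5.10 to 5.54 in the controls and 5.23 to 5.55 in the cKO libraries. Of the 9 spermatogonial markers 1 was lower and 1 higher. Their sums were 173.7 to 235.6 FPKM in the controls and 221.5 to 236.4 FPKM in the cKO libraries. None of these markers reached an adjusted p below 0.05, and their part in the members' values was not tested. Of the spermatid markers 2 were tested and 0 were lower or higher at that level. Spermatids are the cells in which the sperm tail is built, and 5 of their 8 markers, Prm1, Prm2, Tnp1, Tnp2 and Acrv1, were each under 1 FPKM in all 8 libraries. The other spermatid markers were Spaca1 at 1.92 to 8.99 FPKM, Tssk6 at 0.823 to 2.74 FPKM and Tssk1 at 0.694 to 1.14 FPKM. Of the 8 markers of multiciliated cells, which grow many centrioles, Gmnc, Mcidas and Myb were under 1 FPKM in all 8 libraries. Pifo was at 6.90 to 19.4 FPKM, Tppp3 at 8.75 to 11.5 FPKM, and Foxj1, Deup1 and Ccno at 0.626 to 1.81 FPKM, and of the 3 tested Pifo was lower at an unadjusted p below 0.05.

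**Figure D3:**
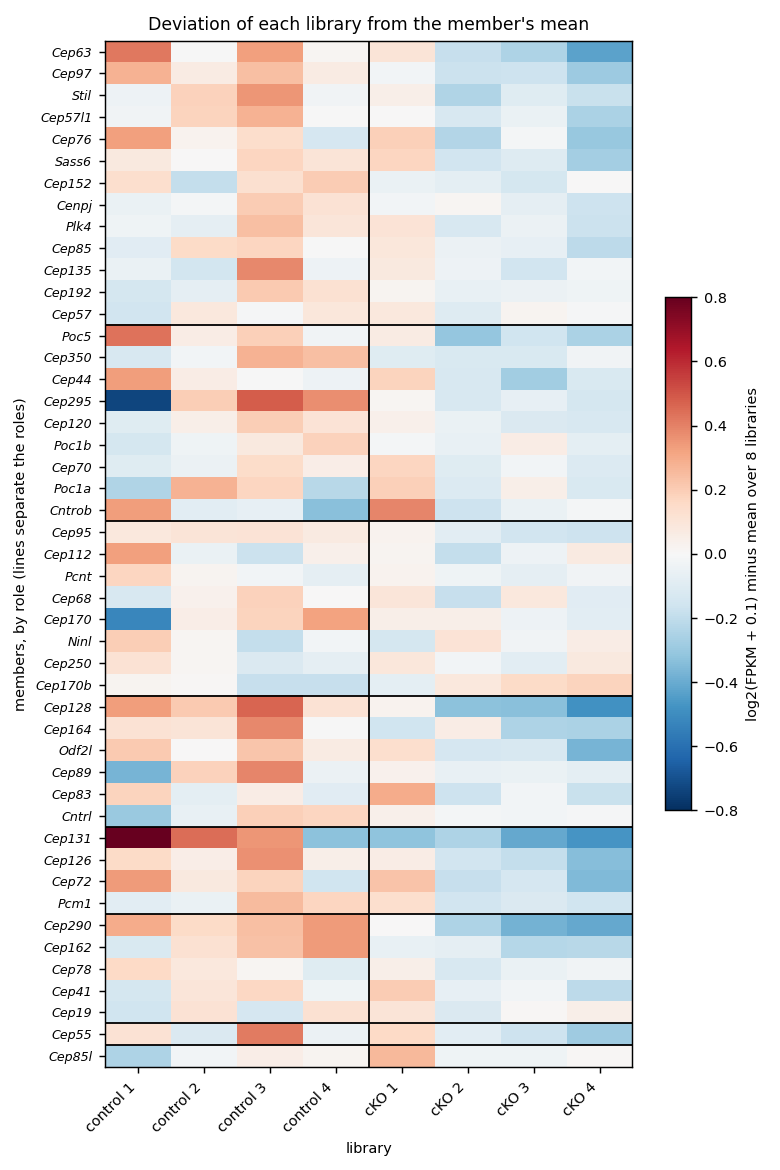
Deviation of each library from a member's mean over the 8 libraries, in log2(FPKM + 0.1), for 47 members tested, with members in rows grouped by role and control and cKO libraries in columns separated by a vertical line. Red is above and blue below the member's mean. The cKO replicates 2, 3 and 4 are mostly blue, cKO replicate 1 is closer to the controls, and control replicate 1 holds both strong reds (Cep131) and strong blues (Cep295).

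The libraries were not even within the groups. Over the 50 members, control replicate 3 had the highest value of all 8 libraries in 21 and cKO replicate 4 the lowest in 22. Control replicate 1 had the highest value in 14 and the lowest in 11. In Cep295, for example, control replicate 1 had 4.48 FPKM against 8.65, 10.6 and 9.78 FPKM in the other controls and 6.81 to 7.62 FPKM in the cKO libraries. Without cKO replicate 1, 12 members were lower at an unadjusted p below 0.05, where 6.60% of all genes were, and 13 did not overlap, where 7.82% of all genes did not. Without control replicate 1 these counts were 12 and 9, and the shares of all genes 5.90% and 5.0%. Without control replicate 3, cKO replicate 3 or cKO replicate 4 the count of lower members was 4, and the share of all genes 3.15%, 2.88% and 2.68%. When limma weighted the libraries by their fit, control replicate 1 had the lowest weight, 0.161. With these weights 3 members reached an adjusted p below 0.05, Cep290 (0.0236), Cep128 (0.0238) and Cep131 (0.0255). The share of all genes at that adjusted level was not counted under these weights. At an unadjusted p below 0.05, 20 members were lower, where 9.93% of all genes were.

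Of the proteins at the ciliary base and in the transition zone, the gate between a cilium and the cell body, Cep290 and Cep162 were lower at an unadjusted p below 0.05. At this level 5.0% of all genes tested were lower. Whether any class of members departs from that share was not tested. Cep290 (ENSMUSG00000019971, GRCm38 chromosome 10, 100487558 to 100574840, plus strand) encodes a linker of the transition zone. It had 12.4, 11.2, 11.9 and 12.8 FPKM in the controls and 10.1, 8.496, 7.72 and 7.56 FPKM in the cKO libraries. Every cKO library was below every control, and the mean was 30.0% lower. The log2 fold change was -0.52 (standard error 0.11, 95% interval -0.77 to -0.27, adjusted p = 0.150). An exact permutation test, two-sided, gave p = 0.0286, the smallest that 4 libraries against 4 can give. Every member without overlap gets this value, here and below. It restates the lack of overlap, is no further evidence, and is not adjusted over the members. Its exons share 881 of 11617 bases with 4930430F08Rik on the opposite strand, a gene at 1.35 to 1.71 FPKM over the 8 libraries, and whether the counting used strand is not given in the sources used here. Cep162, which helps to assemble the transition zone, had 4.72, 5.61, 6.06 and 6.55 FPKM in the controls and 4.94, 4.89, 4.38 and 4.39 FPKM in the cKO libraries. Control replicate 1 lay among the cKO values and the other controls above them, with a log2 fold change of -0.29 (standard error 0.12, adjusted p = 0.445). Its unadjusted p was not below 0.05 after rescaling to TPM or centring, or with a replicate block. Of the other genes of this class, Cep78, Cep41 and Cep19 had log2 fold changes from -0.08 to 0.02.

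Among the 6 appendage genes, 2 were lower and 0 higher at an unadjusted p below 0.05, against 5.0% and 5.89% of all genes. Cep128 (ENSMUSG00000061533, GRCm38 chromosome 12, 90998492 to 91384409, minus strand), a component of the subdistal appendages, had 6.68, 6.12, 7.33 and 5.73 FPKM in the controls and 5.39, 4.19, 4.17 and 3.74 FPKM in the cKO libraries. The groups did not overlap, although the lowest control and cKO replicate 1 lay close together, and the cKO mean was 32.4% lower. Its log2 fold change was -0.56 (standard error 0.14, 95% interval -0.86 to -0.26, adjusted p = 0.178, exact permutation p = 0.0286). Cep164, a distal appendage protein that recruits the kinase TTBK2 when a cilium is started, had 10.9, 10.8, 13.2 and 10.1 FPKM in the controls and 8.99, 10.5, 8.47 and 8.43 FPKM in the cKO libraries. Here cKO replicate 2 was above the lowest control and the other cKO libraries were below all controls. The log2 fold change was -0.30 (standard error 0.12, adjusted p = 0.404). Odf2l stood at -0.25 (standard error 0.12), while Cep83, Cep89 and Cntrl, of which CEP83 is the protein on which the distal appendages are built, lay between -0.08 and 0.00.

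**Figure D4:**
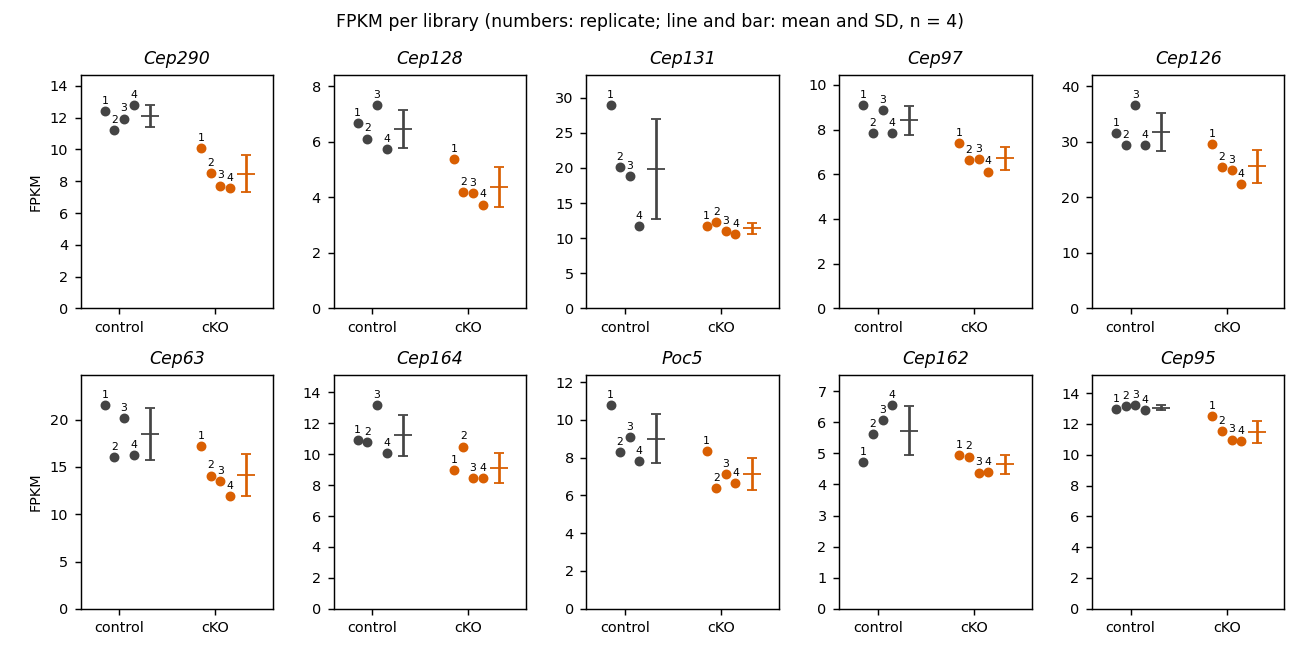
FPKM per library of the 9 members with an unadjusted p below 0.05 and of Cep95, controls in grey and cKO in orange, with the replicate number beside each point and the mean and SD (n = 4) at the right of each group. The groups do not overlap in Cep290, Cep128, Cep97 and Cep95. In Cep131 the controls run from 11.7 to 28.9 FPKM and the 4 cKO libraries from 10.6 to 12.3 FPKM.

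The 4 satellite genes had log2 fold changes from -0.73 to -0.15. At an unadjusted p below 0.05, 2 were lower, where 5.0% of all genes were. Cep131 (ENSMUSG00000039781, GRCm38 chromosome 11, 120064430 to 120086827, minus strand), a satellite protein that also serves the sperm flagellum, had 28.9, 20.1, 18.8 and 11.7 FPKM in the controls. In the cKO libraries it had 11.7, 12.3, 11.0 and 10.6 FPKM. The cKO libraries lay close together and the controls far apart, with SDs of 0.770 and 7.08 FPKM, and control replicate 4 was within the cKO range. The cKO mean was 42.7% lower, with a log2 fold change of -0.73 (standard error 0.22, 95% interval -1.23 to -0.23, adjusted p = 0.287, exact permutation p = 0.0857). Leaving out single libraries moved the log2 fold change between -0.96 and -0.52. Cep126, a centrosomal protein of microtubule organization, had 31.6, 29.5, 36.6 and 29.4 FPKM in the controls and 29.5, 25.5, 24.9 and 22.4 FPKM in the cKO libraries. Its cKO replicate 1 was level with the lower controls, and the others were below them, with a log2 fold change of -0.31 (standard error 0.12, adjusted p = 0.386). Cep72 and Pcm1 stood at -0.22 (standard error 0.15) and -0.15 (standard error 0.12).

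The genes of centriole duplication were the largest class, with 13 members, all of them tested. All 13 log2 fold changes were below 0 in the deposited values, where 48.0% of all genes were. They ranged from -0.38 to -0.00, with a median of -0.13. At an unadjusted p below 0.05, 2 genes were lower, where 5.0% of all genes were. Cep97 (ENSMUSG00000022604, GRCm38 chromosome 16, 55899888 to 55934855, minus strand), which with CCP110 caps the end of a centriole and holds back cilium growth, had 9.09, 7.85, 8.86 and 7.84 FPKM in the controls. In the cKO libraries it had 7.40, 6.64, 6.69 and 6.12 FPKM, all below the lowest control. The cKO mean was 20.2% lower and the log2 fold change -0.32 (standard error 0.10, 95% interval -0.55 to -0.09, adjusted p = 0.305, exact permutation p = 0.0286). Cep63, which brings CEP152 to the parent centriole, had 21.5, 16.0, 20.2 and 16.2 FPKM in the controls and 17.2, 14.1, 13.5 and 11.9 FPKM in the cKO libraries. Here cKO replicate 1 was above 2 of the controls, and the log2 fold change was -0.38 (standard error 0.14, adjusted p = 0.391).

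The core of the duplication pathway gave smaller values, none with an unadjusted p below 0.05. Plk4, the kinase that starts duplication, had 12.7, 12.4, 15.4 and 13.9 FPKM in the controls and 14.04, 11.9, 12.6 and 11.5 FPKM in the cKO libraries, with a log2 fold change of -0.12 (95% interval -0.36 to 0.12). Stil, its substrate, had 7.52, 8.80, 9.93 and 7.58 FPKM in the controls and 7.99, 6.55, 7.23 and 6.84 FPKM in the cKO libraries, with a log2 fold change of -0.23 (95% interval -0.50 to 0.03). In both genes cKO replicate 1 was within the control range and at least 1 other cKO library was below it. Sass6, which builds the cartwheel, had 4.49, 4.26, 4.80 and 4.56 FPKM in the controls and 4.79, 3.81, 3.94 and 3.49 FPKM in the cKO libraries. Its cKO replicates 2, 3 and 4 were below all controls and cKO replicate 1 was near the highest, with a log2 fold change of -0.18 (95% interval -0.45 to 0.09). Cenpj, which governs the length of the new centriole, had 11.9, 12.2, 14.2 and 13.3 FPKM in the controls and 12.1, 12.4, 11.7 and 11.0 FPKM in the cKO libraries (log2 fold change -0.12, 95% interval -0.34 to 0.09). Of the 2 scaffolds that recruit PLK4, Cep152 had 4.29, 3.39, 4.26 and 4.50 FPKM in the controls and 3.75, 3.68, 3.53 and 3.91 FPKM in the cKO libraries (log2 fold change -0.13, 95% interval -0.40 to 0.13). Cep192 had 11.1, 11.7, 14.3 and 13.4 FPKM in the controls and 12.5, 11.8, 11.9 and 12.0 FPKM in the cKO libraries (log2 fold change -0.06, 95% interval -0.29 to 0.17, and 0.02 after rescaling to TPM). In both scaffold genes the controls enclosed all 4 cKO libraries.

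The centriole wall and elongation class had 9 members with log2 fold changes from -0.33 to 0.08. At an unadjusted p below 0.05, 1 was lower, where 5.0% of all genes were. This was Poc5, a centrin-binding protein inside the centriole wall, with 10.8, 8.29, 9.10 and 7.81 FPKM in the controls and 8.34, 6.40, 7.11 and 6.66 FPKM in the cKO libraries. Its cKO replicate 1 was above 2 of the controls and the other 3 were below all of them, with a log2 fold change of -0.33 (standard error 0.13, adjusted p = 0.412). Its exons share 1604 of 6251 bases with Ankdd1b on the opposite strand, but that gene reached no more than 0.125 FPKM in any library. The remaining 8, with Cep120, Cep350, Cep44 and Cntrob among them, did not reach an unadjusted p below 0.05.

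The class of pericentriolar material, linker and anchoring proteins had 0 of 8 tested members at an unadjusted p below 0.05 in either direction. Among all genes 5.0% were lower and 5.89% higher at this level. The class had a median log2 fold change of -0.03. Its best known member, Pcnt, the scaffold of the pericentriolar material, stood at -0.05 (95% interval -0.25 to 0.15), and Cep250, the root of the linker between the centrioles, at 0.03 (95% interval -0.19 to 0.24). Cep170b had the highest log2 fold change of all members, 0.17 (standard error 0.10, adjusted p = 0.603). Cep95 had a narrow control range of 13.0, 13.1, 13.2 and 12.9 FPKM, and its cKO libraries, at 12.5, 11.6, 11.0 and 10.9 FPKM, were all below it. The mean was 12.0% lower, with a log2 fold change of -0.18 (standard error 0.09, adjusted p = 0.482, exact permutation p = 0.0286). Cep55, which acts at the last step of cytokinesis and at the stable bridges between germ cells, had a log2 fold change of -0.19 (standard error 0.14).

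When each library was left out in turn, Cep131, Cep290, Cep97 and Cep128 kept an unadjusted p below 0.05 in all 8 fits. How many of all genes did so was not counted, and the 8 fits share most of their libraries. Their fold changes over these fits ranged from -0.60 to -0.47 for Cep290, from -0.66 to -0.49 for Cep128 and from -0.37 to -0.28 for Cep97. After rescaling to TPM the unadjusted limma p of Cep97 was not below 0.05, while those of Cep131, Cep290 and Cep128 were. By position, 8 members were on chromosome 9, among them 4 of the 9 lower ones. Over the 679 chromosome 9 genes tested, 5.74% were lower at an unadjusted p below 0.05 and the median log2 fold change was -0.00.

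A list of 74 symbols of other centrosomal and centriolar genes was set beside the members. Of these symbols 70 had a row, and 66 of those genes were tested. Their median log2 fold change was -0.12, with 52 below 0, against 48.0% of all genes tested. At an unadjusted p below 0.05, 9 were lower and 3 higher, against 5.0% and 5.89% of all genes. At an adjusted p below 0.05 there were 0. The partner of Cep97 in capping, Ccp110, had a mean of 69.2 ± 5.66 FPKM (SD, n = 4) in the controls and 56.1 ± 9.75 in the cKO libraries, a log2 fold change of -0.31 (adjusted p = 0.448). Ttbk2, the kinase recruited by CEP164, had 10.6 ± 1.29 FPKM in the controls and 8.40 ± 0.754 in the cKO libraries without overlap, a log2 fold change of -0.33 (adjusted p = 0.341). The distal appendage gene Sclt1 stood at -0.39 and the ubiquitin ligase gene Trim37 at -0.46. The centrin genes Cetn4 and Cetn1 stood at -0.78 and -0.68, the cilium gene Dzip1 at -0.93, Fam161a at -0.53 and Lrrcc1 at -0.30. The 3 that were higher were Ofd1 at 0.50, Haus7 at 0.30 and Sfi1 at 0.22. Ofd1, whose protein controls the distal end of the centriole and sits in satellites, had 5.95 to 7.04 FPKM in the controls and 8.32 to 9.87 FPKM in the cKO libraries without overlap (adjusted p = 0.149). The groups also did not overlap in Dzip1, Cetn4, Sclt1 and Cdk5rap2, which were lower, and in Sfi1, which was higher. Among all genes, 2.59% were lower without overlap and 3.64% higher. Ofd1 and Haus7 are on the X chromosome, and so is Cetn2 of the same list, which stood at 0.04. The share of X genes higher at an unadjusted p below 0.05 was not counted. In these libraries the study called no protein-coding gene of the sex chromosomes differentially expressed at its own thresholds.

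Sequence upstream of the members was read from a RefSeq table of promoters on GRCm38.p6, which matched 42 of the 50. The 250 bases before the RefSeq start are shown for Cep290 (chr10:100487332-100487581, plus strand) and Cep128 (chr12:91384410-91384659, minus strand), the members with the 2 smallest p-values, and for Stil (chr4:114999868-115000117, plus strand), the core duplication gene with a match. Each is written 5′ to 3′ on the strand of the gene, and capitals mark a match to AACNGTT, the site of MYB proteins, whose member MYBL1 drives many pachytene genes.
Cep290: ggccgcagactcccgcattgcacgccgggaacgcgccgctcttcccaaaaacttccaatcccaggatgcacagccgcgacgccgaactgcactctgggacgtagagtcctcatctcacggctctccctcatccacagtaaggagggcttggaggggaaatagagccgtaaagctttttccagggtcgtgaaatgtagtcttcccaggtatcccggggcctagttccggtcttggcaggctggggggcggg
Cep128: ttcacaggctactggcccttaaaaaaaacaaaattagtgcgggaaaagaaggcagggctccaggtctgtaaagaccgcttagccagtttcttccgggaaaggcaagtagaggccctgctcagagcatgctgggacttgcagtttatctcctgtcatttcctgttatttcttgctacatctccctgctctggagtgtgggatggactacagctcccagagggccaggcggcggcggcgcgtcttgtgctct
Stil: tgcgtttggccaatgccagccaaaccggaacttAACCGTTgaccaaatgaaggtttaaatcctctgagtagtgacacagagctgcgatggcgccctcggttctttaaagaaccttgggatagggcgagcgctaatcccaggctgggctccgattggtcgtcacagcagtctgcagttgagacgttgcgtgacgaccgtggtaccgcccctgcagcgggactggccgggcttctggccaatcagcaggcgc

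Searched on both strands over these windows, AACNGTT was present in 6 of the 42 members (14.3%), Cep126, Cep135, Cep170, Cep78, Pcnt and Stil, in at least 1 of their windows. In Cep126 the match lay before an alternative RefSeq start and not before the start farthest upstream. Among all 27025 genes of the RefSeq table it was present in 4.27%. The 2 sets were not matched: the members had 55 windows, and the windows per gene of all genes were not counted. The share of G and C bases had a median of 59.3% over the members and 52.4% over all genes. Whether the shares with a match differ was not tested. The Stil match begins 217 bases before the start. GTTGCC, the half-site of the X-box that RFX factors bind at ciliary genes, was present in 5 members (11.9%) and in 11.8% of all genes. TGACGTCA, the CRE bound by CREM and its relatives, was present in 1 member, Cep57 (2.38%), and in 1.77% of all genes. Of the 9 members lower at an unadjusted p below 0.05, Cep126 alone held one of the 3 motifs. The motifs were chosen after the members' values were seen, they do not overlap one another in the windows shown, and a match is a description of letters and not of binding.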

How the data were processed

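Bulk RNA-seq libraries of 4 control and 4 cKO testes were compared. The authors deposited FPKM, made by the sequencing company's software relative to a scaled library size; the aligner, counter and strand setting are not given in the sources used here. The file's gene coordinates were compared with GENCODE vM21 on GRCm38, where 46 of the 50 members had the same start and end. FPKM multiplied by gene length gave whole fragments for 100% of values (tolerance 0.02).

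Genes were tested with limma (version 3.58.1, under R 4.3.3, lmFit with trended eBayes) on log2(FPKM + 0.1), with 4 libraries in each group and no covariate. Genes entered when protein-coding and above a mean of 1 FPKM in each group, and p was adjusted over all of them by Benjamini-Hochberg. For low genes the pseudocount makes a fold change too small. Exact permutation tests were two-sided over the 70 assignments (scipy 1.17.1). The p-values measure the spread between mice, 1 library each. Control replicate 1 was kept.

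In a self-test, fragments were simulated for the 12141 genes of this comparison. Of 200 genes given a log2 change of 1.5 the fit recovered 200 at a dispersion of 0.02 and 199 at 0.05, each time beside 12 false calls. Of 200 genes given 0.5 it recovered 51 (25.5%) and 1 (0.5%).

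The members, the lists and the rule for named genes were chosen with earlier results of these data known. Named per library were members with an unadjusted p below 0.05 or without overlap, the 5 highest and 5 lowest, and Plk4, Stil, Sass6, Cenpj, Cep152 and Cep192. Other members are named by class, and 1 member enters the counts but is not reported here by itself. Alternatives were other pseudocounts, filters, scalings, weights and fits, voom on the recovered fragments, a replicate block, and leaving out each library.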

Additional observations from a re-analysis of the deposited data

Results flagged for a closer look

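Over 49 members in both groups, 98 sets of 4 libraries were searched for a single library far from the other 3. Chance gives about 4.9 such sets, and 2 were found, each with cKO replicate 1 above the other cKO libraries. Pcm1 had 45.58 FPKM in cKO replicate 1 and 37.2 to 38.4 FPKM in the others. Cep85l had 2.771 FPKM against 2.24 to 2.32. In the spermatocyte markers, cKO replicate 1 had a mean log2 level of 5.64 and the other cKO libraries 5.03 to 5.29.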

How the results depend on the processing

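With array weights 3 members reached an adjusted p below 0.05. At an unadjusted p below 0.05, 20 were lower, where 9.93% of all genes were, and 1 (Cep170b) was higher. The shares of all genes at the adjusted level and in the higher direction were not counted under these weights. Rescaling to TPM moved the median of all genes from 0.01 to 0.09 on the log2 scale. After it 4 members were lower at an unadjusted p below 0.05, Cep63, Cep128, Cep131 and Cep290, where 2.97% of all genes were. With the replicate number as a block, 10 members were lower, where 6.81% of all genes were, and 0 reached an adjusted p below 0.05; 8 of the 10 were among the 9 of the fit without the block, and under the block Cep162 was lost and Cep72 and Odf2l were gained. Libraries that share a number deviated together with correlations of 0.0757 to 0.406, under 0.1 in 1 pair. Correlations between libraries of different numbers are not given here, so these values cannot decide whether mice were paired. No pairing was assumed in the main fit. Leaving out each library in turn gave 0 members at an adjusted p below 0.05, 4 to 12 lower and 0 higher at an unadjusted p, 4 to 13 without overlap in the lower direction and 0 to 1 in the higher, and a median log2 fold change of -0.16 to -0.08. Over all 48 members tested, the log2 fold change was below 0 in 42 in the main fit and in 29 under TPM. Signs were followed singly in only 24 members, a part of those named. Of their 449 log2 fold changes, 14 changed sign, all in 5 members close to 0. Under TPM these were Cep192 (0.0209), Ninl (0.0781), Cep112 (0.00513) and Poc1b (0.0316), under array weights Ninl (0.0622) and Cep85l (-0.00498), and after centring on the autosomal median Ninl (0.0209). With single libraries left out, Cep192 ranged from -0.115 to 0.00393, Ninl from -0.0643 to 0.0651, Cep112 from -0.140 to 0.0258 and Poc1b from -0.0992 to 0.00856. The 9 lower members kept their sign under every alternative in which they were tested. Cep128 and Cep162 were not tested where the filter was raised to 5 FPKM. The cause of these changes was not tested. In simulated data of this comparison, 25.5% (dispersion 0.02) and 0.5% (dispersion 0.05) of genes given a log2 change of 0.5 reached an adjusted p below 0.05.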
